A study of Nicotiana tabacum with 36 samples.

Results

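The late-rising genes of both cultivars were 63 of the 35519 tobacco genes in the files. They stood at least 4 times higher after 8 h at 4 °C than before it, and had not yet risen at 0.5 h or at 1 h, in both cultivars. A gene was a member when its ratio, the mean TPM of 3 libraries plus 1 over the mean TPM at 0 h of the same cultivar plus 1, was 4 or more at 8 h and 1.5 or less at 0.5 h and at 1 h. The members were thus chosen by their mean levels at 0, 0.5, 1 and 8 h. TPM is a transcript level scaled for gene length and sequencing depth. The rule allowed up to 200 genes, a number that was not reached. Of the 455 genes with a ratio of 4 or more at 8 h in both cultivars, the other 392 exceeded 1.5 at 0.5 h or 1 h in at least 1 cultivar and are called the earlier risers here.

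The series compared leaves of 2 Nicotiana tabacum cultivars, Yanyan97 (YT), described as cold resistant, and Taiyan8 (TT), described as cold susceptible. Seedlings with 5 leaves grew under 16 h of light at 22 °C and 8 h of dark at 20 °C, at 65% humidity by the labels (the study's methods give warmer and more humid conditions), and were sampled at 0, 0.5, 1, 2, 4 and 8 h of 4 °C, with 3 biological replicates for each cultivar and time, 36 libraries in 12 groups. The sources used here do not say which plants made up a replicate, so a p-value measures the spread between these libraries. Every group after 0 h had the cold, and no plants kept warm were sampled alongside in the libraries analysed here. The cold and the time of day therefore cannot be told apart in any change over time. Each library held between 15484160 counts on genes (YT 4 h replicate 3) and 26691552, and every other library had at least 22239372. Library names in the TPM data end in a letter, A or B, whose meaning is not given. All TT libraries at 0 h carry B, as do some at 0.5, 1, 2 and 8 h. In YT only 8 h replicate 2 does, and all 4 h libraries carry A. At 0 h the cultivar and the letter therefore cannot be told apart. In whole-leaf RNA, fewer cells of a type and less RNA per cell cannot be told apart.

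When a leaf meets low but non-freezing temperature, a first wave of genes responds quickly, among them genes for transcription factors such as CBF/DREB1, which bind promoters of further genes. A later wave follows, known in other plants for proteins and enzymes of cold acclimation: dehydrins, enzymes of compatible sugars, membrane lipid desaturases and pigments. Genes under the circadian clock also change over the hours of a day. The tables used here pair the member identifiers with no gene name, so no role is given to any member, and the leaf label was not checked against marker genes. None of the 63 members is in the study's lists of transcription factors, protein kinases, hub genes, NtCBF genes or qRT-PCR genes, against 61 of the 392 earlier risers and 293 of all 35519 genes. Few of all genes are in these lists, so finding none among 63 members lies near the share over all genes. The lists of transcription factors and protein kinases used here hold only genes changed at every time point, which the rule for late-rising genes makes unlikely, and the study chose them on these samples.

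At 8 h the ratio of the members lay between 4.03 and 71.4 in YT, with a median of 7.45, and between 4.03 and 60.7 in TT, with a median of 10.3. The rule set this range from below, so it is given as a description. In every member and both cultivars, each 8 h library stood above each 0 h library. The rule used these same libraries and made such a separation likely, so this too is description only. Just inside the 8 h limit were Nitab4.5_0005545g0030, with a smaller 8 h ratio of 4.03, and Nitab4.5_0002229g0060, also with 4.03. Just outside it were Nitab4.5_0002342g0170 with 3.95 and Nitab4.5_0002577g0030 with 3.94. At the early limit, Nitab4.5_0000185g0120 with 1.49995 and Nitab4.5_0001817g0020 with 1.47 were the last inside, and Nitab4.5_0003978g0020 with 1.53 and Nitab4.5_0000827g0040 with 1.54 the first outside.

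At 2 h most members stood above their starting level. The ratio was then 4 or more in both cultivars for 30 members, still 1.5 or less in both for 11, and neither for 22. The 2 h and 4 h libraries were not used by the rule. The 30 early members of the set had median ratios of 10.99, 13.01 and 12.9 at 2, 4 and 8 h in YT and of 11.7, 15.4 and 12.4 in TT, so their 2 h medians were already close to those at 8 h. The 22 intermediate members had median ratios of 1.82, 3.89 and 6.30 in YT and 2.02, 5.06 and 8.00 in TT at the same times, each above the one before. For the 11 latest members the medians were 0.823, 1.97 and 5.49 in YT and 0.944, 1.65 and 5.77 in TT, so that the larger part of their change lay between 4 h and 8 h. These 3 classes were formed from the 2 h values and are described without a test.

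**Figure D1:**
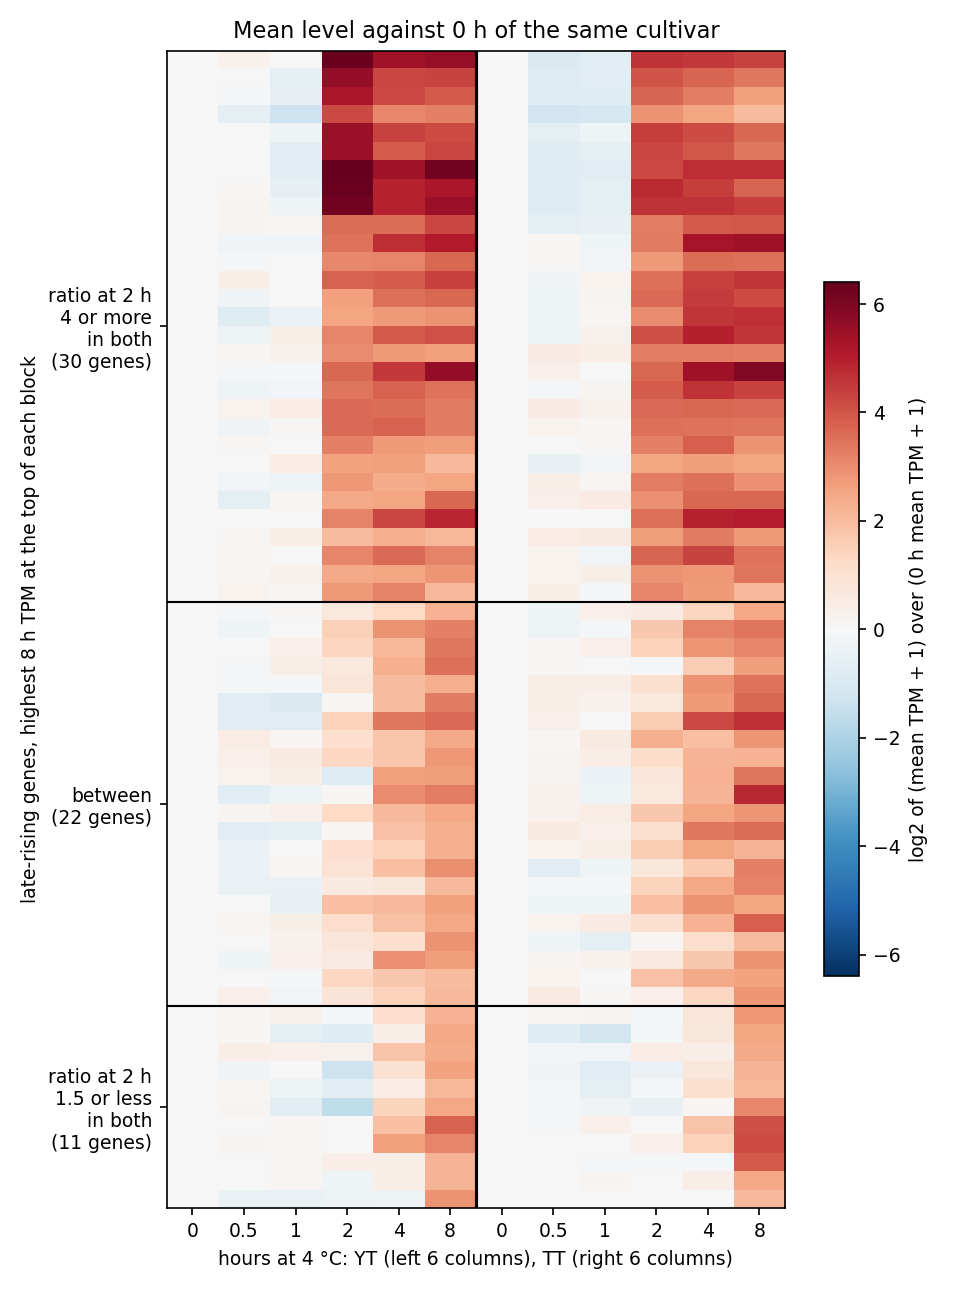
Mean level of the 63 late-rising genes (rows) at 0, 0.5, 1, 2, 4 and 8 h of 4 °C in YT (left 6 columns) and TT (right 6 columns), as log2 of the mean TPM plus 1 over the same cultivar's 0 h mean plus 1; red is above and blue below 0 h. The 30 genes of the top block are red from 2 h on, the 22 of the middle block deepen from 2 h to 8 h, and the 11 of the bottom block turn red mainly at 8 h.

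Across the 63 members, the median share of the 8 h log2 ratio already reached at 2 h was 64.9% in YT and 64.8% in TT. At 4 h it was 86.2% in YT and 94.5% in TT. Computed from the 2 h or 4 h libraries singly, these medians had an SD of 5.87 (2 h) and 3.02 (4 h) percentage points in YT and of 2.83 and 5.20 in TT (n = 3 each), and the cultivars overlapped at both times. The single-library values at 2 h were 54.5, 54.6 and 64.7% in YT, all below the value from the group means, and 62.4, 66.1 and 68.0% in TT, so that 2 YT libraries lay below every TT library. At 4 h they were 82.3, 85.7 and 88.3% in YT and 85.9, 90.6 and 96.3% in TT. The group mean peaked at 2, 4 and 8 h in 13, 7 and 43 members in YT and in 9, 15 and 39 members in TT.

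At 2 h a block of 9 members held most of the members' TPM. These were the 9 whose YT level at 0 h was 0.5 or less of the TT level, on the scale of mean TPM plus 1, a group picked after its values were seen. It comprises Nitab4.5_0001229g0120, Nitab4.5_0000297g0150, Nitab4.5_0000441g0070, Nitab4.5_0002229g0060, Nitab4.5_0000639g0060, Nitab4.5_0000495g0040, Nitab4.5_0000982g0170, Nitab4.5_0000982g0190 and Nitab4.5_0000982g0200. All 9 had a ratio of 4 or more at 2 h in both cultivars. Their summed TPM at 2 h was 1.25, 1.298 and 1.44% of all TPM in the YT libraries and 1.66, 1.88 and 1.89% in the TT libraries, against 0.0140 to 0.0250% in YT and 0.0637 to 0.0769% in TT at 1 h. At 4 h the YT libraries stood at 0.543, 0.621 and 0.629% and the TT libraries at 1.82, 1.86 and 0.871%, the last being TT 4 h replicate 3. At 8 h YT held 0.571 to 0.723%, against 1.505% in TT replicate 1 and 0.915 and 0.969% in the other TT libraries. At 8 h, TT replicate 1 carries the letter A and the other TT libraries B. At 0 h, where the block was picked, all YT libraries carry A and all TT libraries B. Whether the letter matters was not tested. The 54 other members together showed no such peak, with 0.241 to 0.299%, 0.408 to 0.465% and 0.639 to 0.759% in YT and 0.243 to 0.289%, 0.507 to 0.566% and 0.721 to 0.811% in TT at 2, 4 and 8 h.

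**Figure D2:**
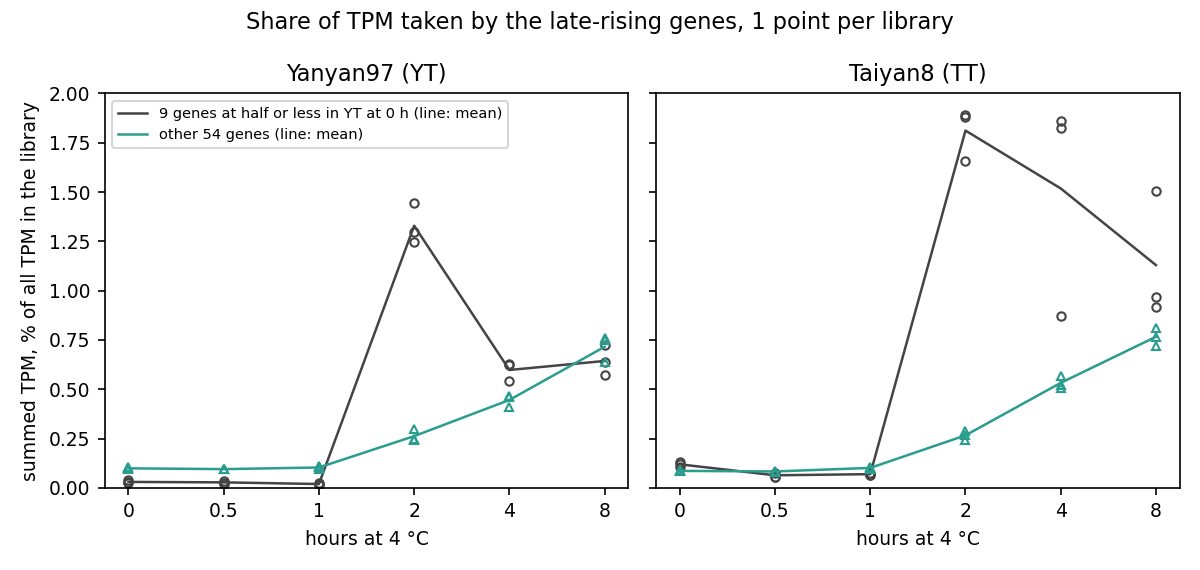
Summed TPM of the 9 members at 0.5 or less of the TT level in YT at 0 h (circles) and of the 54 other members (triangles), in percent of all TPM in a library, by hours at 4 °C, with YT left, TT right, 1 point per library, lines through group means. The 9 genes jump between 1 h and 2 h in both cultivars, and at 4 h the YT libraries (0.543 to 0.629%) lie below all TT libraries, of which TT 4 h replicate 3 is the lowest at 0.871%.

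By the mean over both cultivars, Nitab4.5_0001229g0120 was the most abundant member at 8 h, although Nitab4.5_0001361g0220 stood higher in YT. Nitab4.5_0001229g0120 lies on chromosome 21 (69350329 to 69351777, plus strand, 2 exons, Nitab-v4.5 gene models). In YT its mean TPM was 35.95 ± 11.9, 44.2 ± 7.93, 36.03 ± 6.69, 2825 ± 152, 1524 ± 80.1 and 1794 ± 178 at 0, 0.5, 1, 2, 4 and 8 h (SD, n = 3 each), and in TT it was 149.8 ± 20.1, 78.7 ± 12.3, 89.5 ± 3.96, 3694 ± 480.4, 3449 ± 987 and 3029.9 ± 643. The YT level thus stood 76.5 times and the TT level 24.5 times over 0 h at 2 h, from a lower start in YT. At 4 h the libraries read 1468, 1616 and 1489 TPM in YT against 3910.4, 4120.0 and 2316 TPM in TT, with no overlap (log2 fold change, YT over TT, -1.27, SE 0.26; edgeR, adjusted p = 0.000990).

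Nitab4.5_0000297g0150 (chromosome 2, 79741819 to 79743119, minus strand) had 884, 986 and 1014 TPM at 4 h in YT against 2406, 2408 and 2714 TPM at 2 h. The fall had a log2 fold change of -1.35 (SE 0.30; edgeR, adjusted p = 0.00269), and the libraries did not overlap. In TT the same gene had 3233, 3342 and 1483 TPM at 4 h and 3153, 3156 and 3496 TPM at 2 h, where the groups overlapped and the test was not passed (log2 fold change -0.39, SE 0.30; edgeR, adjusted p = 0.543). Nitab4.5_0000639g0060 (chromosome 21, 54442897 to 54444920, plus strand) showed 674, 658 and 675 TPM at 4 h in YT against 2231, 2179 and 907 TPM in TT. All YT libraries were below all TT libraries (log2 fold change -1.51, SE 0.26; edgeR, adjusted p = 0.000181).

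**Figure D3:**
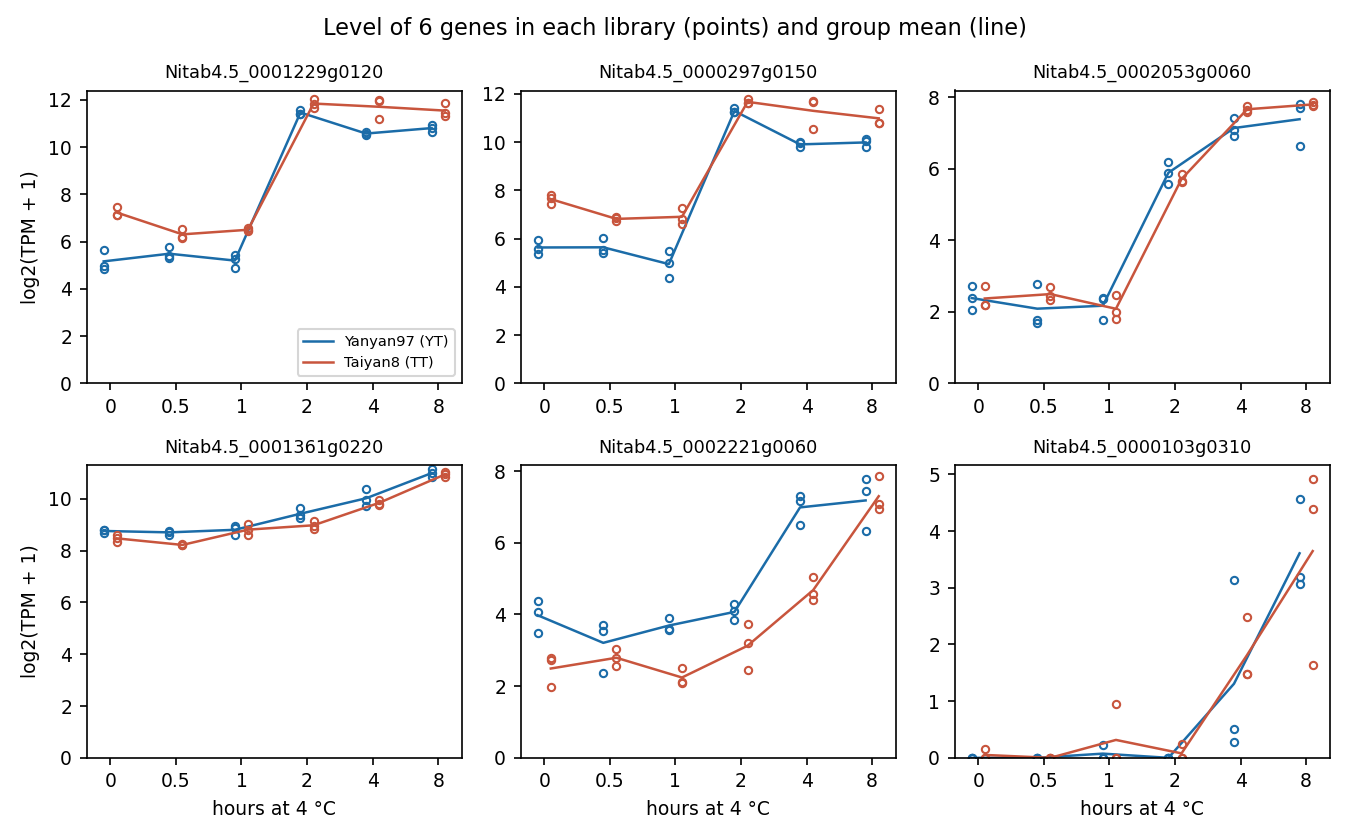
Level of 6 members as log2(TPM + 1) by hours at 4 °C, YT blue and TT red, 1 point per library, lines through the mean of the plotted values. Nitab4.5_0001229g0120 and Nitab4.5_0000297g0150 jump at 2 h from a lower 0 h level in YT, Nitab4.5_0002053g0060 and Nitab4.5_0001361g0220 climb on to 8 h, Nitab4.5_0002221g0060 is higher in YT at 4 h, and Nitab4.5_0000103g0310 stays near 0 until 4 h.

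Comparing 4 h with 2 h asks how the levels changed between these times, on libraries that the rule did not use. In YT, 19 of the 63 members rose and 6 fell (edgeR, adjusted p under 0.05 and a log2 fold change above 1 in size), beside 5.4% of the 23740 genes tested that rose and 1.65% that fell, 7.04% in all. In TT, 13 of 63 rose and none fell, beside 0.99% of the genes tested that rose and 0.788% that fell, 1.78% in all. At an unadjusted p under 0.05, 1 member was lower at 4 h in TT, beside 1982 of the 23740 genes tested. DESeq2 called no member lower, beside 0.850% of its genes. The median log2 fold change over the members was 0.59 in YT and 0.78 in TT, and over all genes tested it was -0.00128 in YT and 0.00 in TT. With members at the count floor set to their bound, the YT median was 0.47. Among the earlier risers tested, 232 of 390 rose in YT (median 1.66) and 22 of 390 in TT (median 0.63), given side by side without a test of the difference. Without YT 4 h replicate 1 the YT count was 127 of 391 (median 0.93), and without TT 4 h replicate 2 the TT count was 14 of 391.

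Rises from 2 h to 4 h passed the test in both cultivars for 9 members, in YT without TT for 10, and in TT without YT for 4. Nitab4.5_0000319g0050 (chromosome 4, 47139069 to 47143534) had the largest called rise in TT, with 163, 169 and 166 TPM at 4 h against 24.8, 25.7 and 29.4 TPM at 2 h (log2 fold change 2.48, SE 0.27; edgeR, adjusted p = 6.96e-07). In YT it had 119.6, 139 and 161 TPM at 4 h against 24.01, 31.9 and 55.6 TPM at 2 h (log2 fold change 1.93, SE 0.27; edgeR, adjusted p = 1.41e-05). No library of the later time reached down to those of the earlier one in either cultivar.

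Other members also rose in both cultivars with libraries that did not overlap. Among them, Nitab4.5_0000895g0250 (chromosome 15, 4394314 to 4401436) rose by 1.89 (SE 0.27) in YT and 2.36 (SE 0.27) in TT on the log2 scale, Nitab4.5_0002545g0050 (chromosome 21, 80288102 to 80292141) by 2.10 (SE 0.38) and 1.96 (SE 0.38), and Nitab4.5_0002053g0060 (chromosome 23, 106245158 to 106250138) by 1.29 (SE 0.25) and 1.81 (SE 0.25). The adjusted p values of these 3 in edgeR ranged up to 0.00227. At 8 h in YT, replicate 2 was low: Nitab4.5_0002545g0050 had 247, 63.4 and 315 TPM and Nitab4.5_0002053g0060 206, 99.3 and 224 TPM in YT replicates 1, 2 and 3, against 308, 306 and 223 TPM and 213, 234 and 218 TPM in TT.

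Among the 4 largest called rises in YT, 2 were of genes with no count at 2 h. Nitab4.5_0002334g0100 (chromosome 23, 118945879 to 118947514) had 0 counts in every YT library at 2 h and 282, 25 and 28 counts at 4 h, at least 42.1-fold higher against a floor of 3 counts per library (edgeR, adjusted p = 0.000814). Nitab4.5_0000103g0310 (chromosome 4, 78345346 to 78346460) likewise had 0 counts at 2 h and 129, 8 and 6 counts at 4 h, at least 17.7-fold higher against that floor (edgeR, adjusted p = 0.00499). The call of Nitab4.5_0000103g0310 was lost without YT 4 h replicate 1, and in both genes that library held most of the counts. Without it the bounds, a check added after seeing the data, were 11.6-fold for Nitab4.5_0002334g0100 and 2.92-fold for Nitab4.5_0000103g0310. Nitab4.5_0000652g0100 (chromosome 24, 16941842 to 16943465) had 10.7, 12.4 and 14.6 TPM at 4 h against 0.184, 1.64 and 0 TPM at 2 h (log2 fold change 4.27, SE 0.97; edgeR, adjusted p = 0.00300). Nitab4.5_0000044g0240 (chromosome 14, 22028252 to 22029862, 1 exon) had 167, 111 and 105 TPM against 18.4, 6.51 and 7.34 TPM (log2 fold change 3.65, SE 0.47; edgeR, adjusted p = 4.23e-06). These last 2 rises started from a 2 h mean below the 0 h mean, so they overstate the change from 0 h. The ratio to 0 h in YT was 0.321 at 2 h and 2.703 at 4 h for Nitab4.5_0000652g0100. For Nitab4.5_0000044g0240 it was 0.555 and 6.074. The 0 h and 2 h libraries overlapped in both genes, and the dip was not tested.

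All 6 members that fell in YT belonged to the 9-gene block. Nitab4.5_0000495g0040 (chromosome 14, 99299360 to 99300163, 1 exon) had the largest called fall, with 205, 369 and 343 TPM at 4 h against 996, 931 and 994 TPM at 2 h (log2 fold change -1.64, SE 0.38; edgeR, adjusted p = 0.00335). The others were Nitab4.5_0000982g0170 with a log2 fold change of -1.41 (SE 0.37), Nitab4.5_0000297g0150 (above), Nitab4.5_0000982g0200 with -1.25 (SE 0.39), Nitab4.5_0000639g0060 with -1.16 (SE 0.26) and Nitab4.5_0002229g0060 with -1.14 (SE 0.35), with adjusted p values of edgeR up to 0.0301. Leaving out single libraries of the pair kept the calls of Nitab4.5_0000495g0040, Nitab4.5_0000297g0150 and Nitab4.5_0000639g0060 each time. The call of Nitab4.5_0000982g0170 was lost without YT 4 h replicate 1, and those of Nitab4.5_0000982g0200 and Nitab4.5_0002229g0060 were kept only without YT 2 h replicate 2, so the number of falls ranged between 3 (without YT 4 h replicate 1) and 7 (without YT 2 h replicate 2). The remaining 3 genes of the block, Nitab4.5_0000441g0070, Nitab4.5_0000982g0190 and Nitab4.5_0001229g0120, were also below their 2 h libraries in every 4 h library of YT, with log2 fold changes of -0.96, -0.96 and -0.86 that did not pass both thresholds. In TT none of the 9 passed the test.

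**Figure D4:**
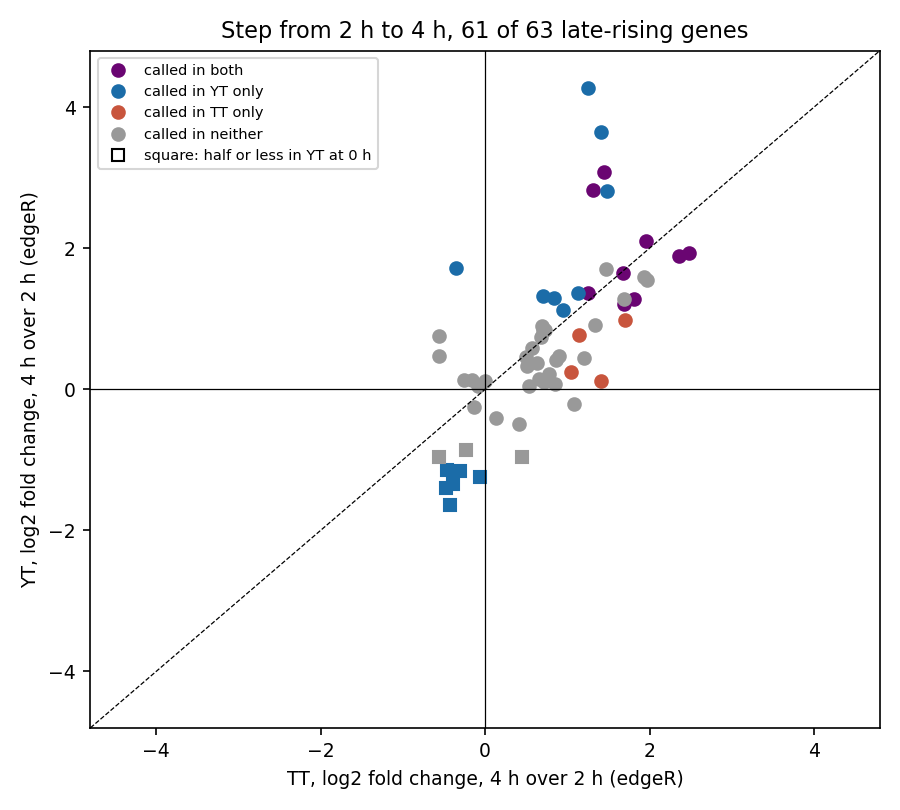
Log2 fold change of 4 h over 2 h (edgeR) in YT (vertical axis) against TT (horizontal axis) for 61 of the 63 members. The 2 left out, Nitab4.5_0000103g0310 and Nitab4.5_0002334g0100, had 0 counts in YT at 2 h. Colours give the cultivar in which a gene passed the test, squares are the 9 members at 0.5 or less of the TT level in YT at 0 h, and the dashed line marks equal change. The squares lie below 0 in YT, and 6 of them are called there.

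The difference of the step between the cultivars, tested as an interaction, was called for none of the 63 members in edgeR, beside 0.931% of the genes tested, 0.792% with the larger value in YT and 0.139% with the larger value in TT. At an unadjusted p under 0.05 there were 16 members, 6 with the larger value in YT and 10 with the larger value in TT, 5 of these in the 9-gene block. Of all 23740 genes tested, 3811 had such a p-value, 2220 with the larger value in YT and 1591 in TT. DESeq2 called 3 members, Nitab4.5_0000044g0240, Nitab4.5_0000444g0150 and Nitab4.5_0002700g0220, each with the larger rise in YT, beside 1.92% of its 28347 genes. So the members called in 1 cultivar and not in the other are not shown to differ between them by the main test. Leaving out TT 2 h replicate 3, TT 4 h replicate 3 or YT 2 h replicate 1 gave 1 call each (Nitab4.5_0000444g0150, Nitab4.5_0000639g0060 and Nitab4.5_0000044g0240). For the earlier risers 36 of 390 were called in edgeR, all with the larger rise in YT, 71 of 392 in DESeq2 (70 of them larger in YT) and 3 of 389 in a fit on the libraries compared. In edgeR there were, with single libraries left out, between 2 (without YT 2 h replicate 2) and 65 (without YT 4 h replicate 2). Without YT 4 h replicate 1 or TT 4 h replicate 1 there were 3.

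Between the cultivars at 2 h, 1 member was higher and 3 were lower in YT, beside 2.67% of the genes tested that were higher and 2.22% that were lower, 4.89% in all. The member that was higher, Nitab4.5_0000143g0160 (chromosome 11, 1371307 to 1375455), had 78.1, 63.6 and 60.6 TPM in YT against 31.97, 24.4 and 34.1 TPM in TT (log2 fold change 1.02, SE 0.30; edgeR, adjusted p = 0.0295). On the scale of mean TPM plus 1, its YT over TT ratio was already 3.20 at 0 h, which was not tested, and 2.20 at 2 h. The lower ones were Nitab4.5_0000312g0240 (chromosome 23, 21249622 to 21250068), with 34.8, 46.9 and 75.9 TPM in YT against 125, 226 and 130.0 TPM in TT, Nitab4.5_0000044g0240 with a log2 fold change of -1.68 (SE 0.44) and Nitab4.5_0004360g0050 (chromosome 10, 92834939 to 92836116) with -1.06 (SE 0.34). These 4 calls depended on single libraries: there were 7 without TT 2 h replicate 1, 2 without TT 2 h replicate 3, 1 without YT 2 h replicate 1, and 0 without TT 2 h replicate 2 or without YT 2 h replicate 2. No gene of the 9-gene block was called at 2 h. The median log2 fold change over the members was -0.38, against -0.02 over all genes tested. For the earlier risers it was -0.31, near that of the members, with 17 of 390 lower and 5 higher in YT. Without TT 2 h replicate 2 the median was -0.17 for the members and 0.02 for the earlier risers.

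At 4 h YT was lower than TT for 17 members and higher for 6, beside 2.57% of the genes tested that were lower in YT and 4.17% that were higher, 6.74% in all. The median log2 fold change over the members was -0.43, against 0.01 over all genes tested. For the earlier risers the median was 0.78, with 124 of 390 higher and 11 lower in YT. Without YT 4 h replicate 1 their median was -0.02, with 42 of 391 higher and 20 lower, and without TT 4 h replicate 1 there were 72 higher. The members' median was -0.40 without YT 4 h replicate 1, with 6 higher and 15 lower. Without TT 4 h replicate 3, low in the 9-gene block, 19 were lower and 5 higher in YT. The same counts were obtained without YT 4 h replicate 3, the library with the fewest counts. Without TT 4 h replicate 2 there were 13 lower and 4 higher, with a median of -0.27.

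All 9 genes of the 9-gene block were among the 17 that were lower in YT at 4 h. The block was picked by a low YT level at 0 h, so its lower YT level at 4 h is not independent of that choice. How many of all genes picked in the same way would be called at 4 h was not counted. Nitab4.5_0000495g0040 had 205, 369 and 343 TPM in YT against 1332, 1127 and 462 TPM in TT (log2 fold change -1.77, SE 0.38; edgeR, adjusted p = 0.00180). Nitab4.5_0000982g0200 had 115, 147 and 152 TPM in YT against 557, 479 and 223 TPM in TT (log2 fold change -1.67, SE 0.40; edgeR, adjusted p = 0.00441), and Nitab4.5_0000982g0170 had 182, 255 and 253 TPM in YT against 794, 804 and 324 TPM in TT (log2 fold change -1.58, SE 0.37; edgeR, adjusted p = 0.00374). In these the lowest TT value is that of replicate 3, and it lies above all YT values. Nitab4.5_0000982g0190 (chromosome 14) was the weakest call of the block: with 140, 178 and 196 TPM in YT against 546, 478 and 164 TPM in TT, its groups overlapped through TT 4 h replicate 3, and the call was kept only without that library (log2 fold change over all libraries -1.37, SE 0.42; edgeR, adjusted p = 0.0289). The calls of the other 8 genes were kept whichever library of the pair was left out.

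On the scale of mean TPM plus 1, the median ratio of YT over TT over the 9 genes was 0.260, 0.482, 0.277, 0.765, 0.378 and 0.596 at 0, 0.5, 1, 2, 4 and 8 h. The other 54 members had medians of 1.14, 1.09, 1.06, 0.958, 0.856 and 0.882. Of these, 4 stood at a ratio of 2 or more at 0 h. The low value at 0 h is what picked the 9 genes, so it is no result. Only the 2 h and 4 h values were tested, gene by gene, as given above.

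**Figure D5:**
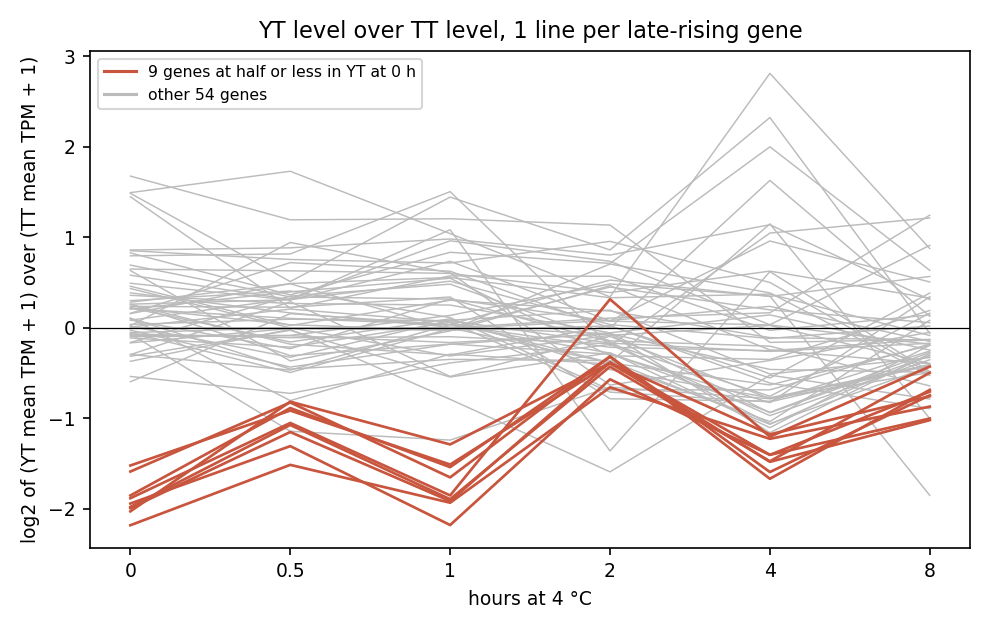
Log2 of the YT mean TPM plus 1 over the TT mean TPM plus 1 by hours at 4 °C, 1 line per member; red lines are the 9 members at 0.5 or less of the TT level in YT at 0 h, grey lines the other 54. The red lines come closest to equal levels at 2 h (median ratio 0.765) and lie lower at 4 h (0.378).

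For 6 members the 4 h level was higher in YT than in TT. Nitab4.5_0002221g0060 (chromosome 14, 102317766 to 102320130) had 157, 88.7 and 143 TPM in YT against 20.2, 22.9 and 32.02 TPM in TT (log2 fold change 2.31, SE 0.38; edgeR, adjusted p = 8.71e-05). At 8 h its levels overlapped, with 218, 172 and 79.6 TPM in YT and 136, 121 and 233 TPM in TT. Nitab4.5_0000652g0100 had 10.7, 12.4 and 14.6 TPM in YT against 1.198, 0.386 and 1.196 TPM in TT (log2 fold change 3.72, SE 0.94; edgeR, adjusted p = 0.00719). Nitab4.5_0002209g0170 (chromosome 1, 131685340 to 131696577) had 28.3, 22.4 and 25.1 TPM in YT against 3.66, 4.34 and 8.67 TPM in TT (log2 fold change 2.15, SE 0.60; edgeR, adjusted p = 0.0146). The call of Nitab4.5_0000652g0100 was lost without TT 4 h replicate 2, and that of Nitab4.5_0002209g0170 without TT 4 h replicate 1 or TT 4 h replicate 2, while that of Nitab4.5_0002221g0060 was kept each time. All 6 had risen from 2 h to 4 h in YT. On the scale of mean TPM plus 1, the genes named here already stood higher in YT at 0 h, which was not tested. YT over TT was then 2.80 for Nitab4.5_0002221g0060, 2.82 for Nitab4.5_0000652g0100 and 1.78 for Nitab4.5_0002209g0170. In that order it was 1.82, 1.27 and 1.64 at 2 h, and 5.01, 7.03 and 4.00 at 4 h.

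From a start near 0, Nitab4.5_0000078g0010 (chromosome 2, 65150480 to 65156623, minus strand, 7 exons) reached the largest 8 h ratio by the smaller of the 2 cultivars, 49.9 in YT against 60.7 in TT. At 0, 2, 4 and 8 h its mean TPM was 0.390 ± 0.183, 16.6 ± 0.581, 31.3 ± 5.98 and 68.4 ± 26.4 in YT, and 0.416 ± 0.349, 17.3 ± 3.18, 60.9 ± 9.47 and 84.9 ± 8.72 in TT (SD, n = 3 each). Nitab4.5_0000078g0050, on the same strand 21 bases away, was listed at 0 TPM in all libraries up to 1 h and had 37.03, 13.96 and 33.01 TPM in YT and 25.07, 37.09 and 34.35 TPM in TT at 8 h, where the groups overlapped. The files do not say whether the short gene (exon length 204 bases) is a transcript of its own. Nitab4.5_0002053g0060, with 33.4 in YT and 42.5 in TT, came next in 8 h ratio, and Nitab4.5_0002709g0020 (chromosome 7, 97669659 to 97671974) with 20.6 and 23.6 and Nitab4.5_0004360g0050 with 17.1 and 24.104 were also among the 8 largest.

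Nitab4.5_0001361g0220 (chromosome 24, 43771687 to 43776607, plus strand, 4 exons) was abundant from the start. Its mean TPM was 434 ± 24.3, 418 ± 25.9, 449.6 ± 56.0, 693 ± 94.8, 1059.6 ± 246 and 2052 ± 223 in YT and 356 ± 33.9, 298 ± 7.22, 452 ± 66.9, 507 ± 49.5, 923 ± 71.0 and 1972 ± 136 in TT at 0, 0.5, 1, 2, 4 and 8 h (SD, n = 3 each). The 8 h libraries of the cultivars overlapped. From 2 h to 4 h its log2 fold change was 0.74 in YT and 0.68 in TT, short of the fold threshold. Nitab4.5_0007992g0040 (chromosome 22, 127390526 to 127391805) rose in both cultivars, with 463, 371 and 412 TPM at 4 h against 149, 140.3 and 201 TPM at 2 h in YT (log2 fold change 1.37, SE 0.25; edgeR, adjusted p = 0.000392) and 447, 574 and 472 TPM against 134, 247 and 169 TPM in TT (log2 fold change 1.25, SE 0.25; edgeR, adjusted p = 0.00305). Nitab4.5_0000845g0230 (chromosome 22, 101256726 to 101257455) rose in TT, with 369, 445 and 427 TPM at 4 h against 126, 198 and 168 TPM at 2 h (log2 fold change 1.14, SE 0.21; edgeR, adjusted p = 0.000978), a call lost without TT 2 h replicate 1, where the log2 fold change was 0.94.

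At the other end, 3 members were still at a ratio of 1.5 or less at 4 h in both cultivars. For instance, Nitab4.5_0002547g0010 (chromosome 18) had 1.05, 2.93 and 7.05 TPM at 8 h in YT and 28.4, 2.01 and 17.2 TPM in TT, and at most 1.29 TPM in any library up to 4 h. Nitab4.5_0005743g0010 (chromosome 5) had 4.503, 10.9 and 11.4 TPM in YT and 3.08, 2.72 and 3.78 TPM in TT at 8 h, and was listed at 0 TPM in every TT library up to 4 h. These 2 were named after their values were seen. Replicates of such low genes differed widely, as the 8 h libraries of TT show for the first of them.

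The members lay on 20 of the 24 chromosomes, with 8 on chromosome 2 and 7 on chromosome 14 and none on chromosomes 3, 13, 17 and 20. Of the 63, 5 (7.94%) had another member within 5 genes. They were the pair on chromosome 2 described above and a run on chromosome 14: Nitab4.5_0000982g0170 (109803201 to 109804004), Nitab4.5_0000982g0190 (109834017 to 109834820) and Nitab4.5_0000982g0200 (109835123 to 109846567), all on the minus strand. There were 30013 bases between the first and the second gene and 303 between the second and the third. All 3 belong to the 9-gene block.

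An exon length of 804 bases, noticed after seeing the data, was shared by 5 members of 1 exon, against 0 of the 392 earlier risers and 0.197% of all genes. They were Nitab4.5_0000982g0170, Nitab4.5_0000982g0190, Nitab4.5_0000495g0040 and Nitab4.5_0002229g0060 of the 9-gene block, and Nitab4.5_0000020g0090 on chromosome 2. That last gene had another course, its group means at 2, 4 and 8 h being 5.995, 14.5 and 65.0 TPM in YT and 9.85, 18.9 and 67.3 TPM in TT. Tobacco is an allotetraploid, so many genes have near-identical copies from its parent species. Reads that matched several places were not counted, so values of genes with near-identical copies of any origin are uncertain. Equal length may mark such copies, but no sequences were compared, and the origin of the shared length was not tested. Over all members the median exon length was 1158 bases, against 977 for the earlier risers and 912 for all genes.

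Of the 63 members, 11 (17.5%) were in a list of 354 genes that the study shares with an earlier cold experiment, against 14.8% of the earlier risers and 0.997% of all genes. Among them were Nitab4.5_0001361g0220, Nitab4.5_0007992g0040, Nitab4.5_0002545g0050, Nitab4.5_0000895g0250 and Nitab4.5_0000143g0160, and none of the 9-gene block. The list holds only genes that also changed with cold in the study's own tests on these samples. A gene unchanged here could not be listed, so the share over all genes is low by construction. Being listed is therefore not independent evidence about the members or their direction.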

How the data were processed

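RNA was sequenced from leaves in 36 libraries, 3 for each of 12 groups. The authors trimmed reads with Trim Galore 0.6.4, checked them with FastQC 0.11.5, aligned them with HISAT2 2.0.5 to the Nitab-v4.5 genome, and removed alignments of low mapping quality with SAMtools 1.9. The deposited TPM values came from StringTie 1.3.4d, and the deposited raw read counts per gene from featureCounts 1.6.4. Reads were counted without strand, so overlapping genes on opposite strands cannot be told apart.

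The rule was applied to group means of TPM with a pseudocount of 1. It used the 24 libraries at 0, 0.5, 1 and 8 h, so every value at these times, and every contrast with them, is given without a test. The 5 comparisons tested use the 2 h and 4 h libraries: 4 h over 2 h in each cultivar, YT over TT at each time, and the difference of the steps. Counts were fitted with edgeR 4.0.16 (R 4.3.3; filterByExpr, TMM, quasi-likelihood test, two-sided) over all 36 libraries with 1 term per group, which tested 23740 genes, all 63 members among them. A gene was called at a Benjamini-Hochberg adjusted p under 0.05 over all genes tested and a log2 fold change above 1 in size. The study's methods name DESeq2, which was run here (1.42.0) as an alternative. The scripts were tested on simulated data. Libraries held 15484160 to 26691552 counts, and replicates differed by more than counting error. The edgeR test gives no SE, so each SE is the size of the log2 fold change over the square root of the test's F value. F allows for the spread between replicates, while floors cover counting error only.

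Genes were named by rule: the 8 most abundant at 8 h, the 8 with the largest smaller 8 h ratio, the 4 largest called rises and falls in each cultivar and the 3 largest called differences in each direction between cultivars at each time where libraries did not overlap, and the genes at the limits of the rule. Others are said to be chosen after their values were seen or stand in a set described as such. The members, lists and tests were chosen with earlier results of these data known. Alternatives were DESeq2, DESeq2 size factors in edgeR, no filter on low counts, a fit on the libraries compared, replicate number as a block, leaving out each library, and for the rule a pseudocount of 0.1, the mean of log values, CPM and no upper limit. No 2 libraries of a group agreed within sampling noise. Of the identifiers, 0 matched the reference gene table, so names, marker lists and sequences were not used here.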

Additional observations from a re-analysis of the deposited data

Results flagged for a closer look

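Nitab4.5_0001803g0050 had libraries that lay on opposite sides of the 2 h level at 4 h in the cultivars, without passing a test. It had 28.6, 41.7 and 52.9 TPM at 4 h in YT against 53.5, 56.99 and 64.0 TPM at 2 h, and 97.0, 101 and 81.1 TPM at 4 h in TT against 59.7, 52.7 and 70.9 TPM at 2 h. All YT libraries at 4 h were below all those at 2 h, and all TT libraries at 4 h were above all those at 2 h. Neither step passed, with a log2 fold change of -0.50 in YT (edgeR, adjusted p = 0.154) and 0.42 in TT (edgeR, adjusted p = 0.363). The difference of the steps, YT minus TT, was -0.91 on the log2 scale (SE 0.32) and did not pass the test (edgeR, adjusted p = 0.153).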

How the results depend on the processing

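Counts of members called stayed within 1.5 times those reported under DESeq2, DESeq2 size factors, no filter and the fit on the libraries compared, except for the difference of the steps, where 3 members were called by DESeq2 and 1 in the fit on the libraries compared, against 0. Over all genes, the difference of the steps gave 545 calls in DESeq2 and 65 in the fit on the libraries compared, against 221. That fit also gave 222 calls for 4 h over 2 h in TT, against 422, and 578 for YT over TT at 2 h, against 1161. Among the earlier risers, that fit gave 58 higher in YT at 4 h, against 124, and 10 called at 2 h, against 22, while DESeq2 gave 37 rises in TT, against 22. The cause was not tested. The median share of the 8 h log2 ratio reached at 2 h was 55.2% in YT with CPM and 68.9% in TT with a pseudocount of 0.1.

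With single libraries left out, the number of members called was 21 to 24 for 4 h over 2 h in YT, 10 to 15 in TT, 0 to 7 for YT over TT at 2 h, 17 to 24 at 4 h and 0 to 1 for the difference of the steps, and 60 to 65 genes met the rule. All genes called ranged over 1112 to 1668, 290 to 735, 676 to 1871, 1051 to 1693 and 39 to 528 in the same order. The members' medians ranged over 0.45 to 0.69, 0.61 to 0.94, -0.55 to -0.17, -0.58 to -0.27 and -0.37 to -0.085. Median shares ranged over 61.0 to 66.2% in YT and 62.5 to 69.4% in TT at 2 h, and 85.3 to 88.7% in YT and 92.2 to 95.2% in TT at 4 h.

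Of 43 calls of named genes, 28 were kept under every setting run and none changed sign. With a pseudocount of 0.1, 71 genes met the rule, 48 of them members. With the mean of log values it was 60, of which 58 were members, and with CPM it was 82, of which 56 were members. Same-numbered libraries did not deviate together in every comparison, so the numbers were not taken as pairs. Between YT 4 h and YT 2 h, their deviations from the group mean correlated at 0.089, 0.095 and 0.186 (Pearson r across genes). Between YT and TT at 4 h these values were -0.104, -0.017 and -0.109, and the remaining comparisons had both signs. With the replicate block the members called were 25, 13, 3, 23 and 0 in the order above.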
